A study of Homo sapiens with 2 samples.

Results

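Binding sites of ZNF728 that lay in genes or at promoters were examined in HEK293T cells, a human embryonic kidney line. A peak was counted when its centre was within 1000 bp of any transcript start or inside any gene body of GENCODE 44 (all gene types, chromosomes 1 to 22 and X). Of the 504 peaks in the list, 295 met this rule (58.5%, exact 95% interval 54.1 to 62.9%), and 209 were intergenic. The cells had been transduced with a lentiviral, doxycycline-inducible transgene for ZNF728 with 3 HA tags and selected with puromycin. The protein was induced and precipitated with an anti-HA antibody, and a total input of the line served as the control in peak calling. There was 1 IP library and 1 input library, so no value has an error between libraries. The protein came from a transgene, and an IP from cells without the tag was not analysed here.

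ZNF728 is a KRAB zinc finger protein (KZFP). Proteins of this family bind DNA through an array of zinc fingers, and many recognise transposable elements, over which their KRAB domain recruits the corepressor KAP1 (TRIM28) and, through it, a histone methyltransferase that lays down repressive chromatin. ERV9 is an endogenous retrovirus of primates, and LTR12 is the name of its long terminal repeats, which carry promoter activity. An element inside a gene can be transcribed as part of that gene, and one beside a gene can provide it with a start site.

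Peaks were sorted by position into 80 promoter, 14 exon and 201 intron peaks, and by sequence into 3 classes. An ERV9 copy was a locus with at least 80% identity to at least 50% of an 847 bp genomic product of the ERV9 primers of the study. An ERV9-related fragment was a locus with at least 70% identity that did not meet these limits. All other peaks are called outside ERV9. Among the 295 peaks, 88 lay on copies, 32 on fragments and 175 outside ERV9.

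The peak centres on copies and fragments fell in the same place. The median position was 368 on the query in the 80 intron copies, 363 in the 7 promoter copies and 367.5 in the 32 fragments, and all 88 copies had their centre within 50 bp of their median. A site of 30 letters there (query positions 353 to 382) is printed below because the scores and the sites outside ERV9 described later refer to it. Its start at 353 was set by the stretch found most often in the later search of peaks outside ERV9. The most frequent letter was held by 93.2 to 100% of the 88 copies at each position except 357 (80.7%), 358 (81.8%), 359 (64.8%) and 371 (81.8%). In the 32 fragments position 359 was the least constant as well (50%), and at 365 most fragments had another letter (C, 78.1%). Such constancy was also found in the copies outside the site, with 98.9% at position 312 and 97.7% at 385, and 67.0% at 346. The site is given along the strand of the provirus. That strand was set by the envelope-like sequence found downstream on the same strand in 231 of the 235 copies that had such sequence within 10000 bp. Capitals mark its letters 353 to 362 (the first stretch) and 369 to 378 (the second stretch). The consensus was taken from the 88 genic copies with a peak, and the other lines are hg19 sequence.
ERV9 consensus, identical in MBOAT2, NUDT19, ADIPOR2 and ENSG00000286403: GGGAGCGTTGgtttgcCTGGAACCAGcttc
VAMP9P intron copy, chr4:83259488-83259517, minus strand, score 4736: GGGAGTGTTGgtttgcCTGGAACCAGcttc
ECH1 intron copy, chr19:39314218-39314247, plus strand, score 4501: GGGAGCGTTGgtttgcCTAGAACCAGcttc
AIG1 intron fragment, chr6:143408104-143408133, minus strand, score 5121: GGGAGCGTTGgtctgcCTGGAACCAGcttc
STARD7-AS1 intron fragment, chr2:96888318-96888347, minus strand, score 4586: GGAAGCGTTGgtctgcCTGGAACCAGcttc
METTL25 promoter copy, chr12:82767537-82767566, minus strand, score 1710: GGGAGCACTGgtttgcCTGGAACCAGcttc
DHRS2 promoter copy, chr14:24106162-24106191, plus strand, score 820: GGGAATGTTGttttgcCTGGAACCAGcttc
C1orf112 promoter copy, chr1:169631942-169631971, plus strand, score 100: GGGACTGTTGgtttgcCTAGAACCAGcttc
A2ML1-AS1 copy without a peak, chr12:8941557-8941586, plus strand: GGGACCATTGgtttgcCTAGCACCAGcttc
ENSG00000248752 copy without a peak, chr5:125557763-125557792, plus strand: TGGAGCATTTgtttgcCTGGAACCAGcttc

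Scores were higher where the site was closer to the consensus. Among genic copies the median score was 3193 with 0 mismatches (15 peaks, 95% interval of the median 1862 to 4416). It was 2168 with 1 mismatch (25 peaks, 1840 to 2709), 1288 with 2 (27 peaks, 464 to 1913) and 679 with 3 or more (21 peaks, 327 to 1133). The intervals with 0 and with 3 or more mismatches did not overlap, while those of neighbouring classes and those with 0 and with 2 did. Fragments had the same order, with 5582 for the 1 peak without a mismatch (ADIPOR2) and 4301.5 over 4 peaks with 1. The median was 1626.5 over 10 peaks with 2 (715 to 3766) and 713 over 17 peaks with 3 or more (512 to 1462). These last intervals overlap. Across genic peaks, Spearman's rho between mismatches and score was -0.58 on 88 copies and -0.70 on 32 fragments. With the identity of the whole element to the query in place of the site, rho was 0.03 and -0.04. These correlations are descriptions. The peaks share 1 library, the elements share descent, and the consensus came from the copies themselves.

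**Figure D1:**
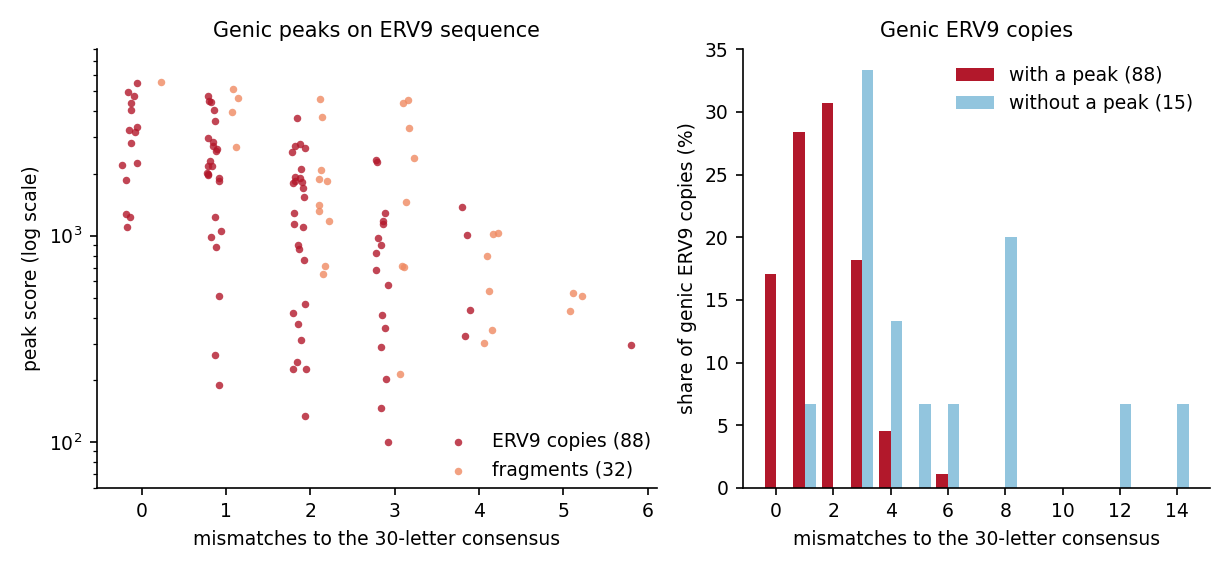
Left, score of each genic peak on an ERV9 copy (88) or fragment (32), on a log scale, against its mismatches to the 30-letter consensus. Right, share of genic ERV9 copies by the same mismatches, for the 88 copies with a peak and the 15 without. Points move down to the right, and 6 of the 15 copies without a peak had 3 or fewer mismatches against 83 of 88 with one. The consensus was made from the 88 copies with a peak.

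Genes held 103 ERV9 copies on chromosomes 1 to 22 and X, and 88 of them had a peak (85.4%, exact 95% interval 77.1 to 91.6%). Outside genes it was 132 of 152 (86.8%), and the shares did not differ beyond counting error (two-sided Fisher's exact test, adjusted p = 1). The 15 genic copies without a peak were in DLG2, a synaptic scaffold, in SPATA6, RTL4 and 12 other loci mainly of non-coding genes. Their best match to the 30-letter site had a median of 4 mismatches (range 1 to 14), against 2 (range 0 to 6) in the 88 copies with a peak. The consensus was made from those 88, which by construction lie closer to it, so this contrast is a description with no test. The identity of the whole copy was alike, with medians of 87.6% and 87.1%. DLG2 held both kinds. Its copy with a peak scored 2616, and its copy without one had 8 mismatches. The copy in ENSG00000237400 had no peak with 1 mismatch, so a close match was not always accompanied by a peak.

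Promoter peaks had lower scores than intron peaks. Their median score was 220 (95% interval 178 to 301, range 81 to 5473) and their median width 263.5 bp, against 552 (434 to 874, range 81 to 5582) and 348 bp for intron peaks. The 14 exon peaks had a median score of 216.5 (163 to 713) and a median width of 251.5 bp. Of the promoter peaks 19 of 80 (23.8%) were above 568, the median score of the whole list, and of the intron peaks 100 of 201 (49.8%, Fisher's exact test, adjusted p = 0.000136). Outside ERV9, 11 of 71 promoter peaks (15.5%) and 17 of 92 intron peaks (18.5%) were above that score (Fisher's exact test, adjusted p = 1), with median scores of 206 (171 to 276) and 224 (178 to 288). Score and width moved together in each class, with rho of 0.82, 0.84 and 0.90 in promoter, exon and intron peaks.

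ERV9 copies lay under 7 of 80 promoter peaks (8.75%, exact 95% interval 3.59 to 17.2%) and under 80 of 201 intron peaks (39.8%, 33.0 to 46.9%), a difference past the threshold of 0.05 (Fisher's exact test, adjusted p = 2.67e-07). Together the genic peaks were on copies in 88 of 295 cases (29.8%) and the intergenic peaks in 132 of 209 (63.2%, Fisher's exact test, adjusted p = 6.97e-13). With copies limited to 90% identity, which few loci met, neither difference passed the threshold. They were 2.73 points between intron and promoter peaks (Fisher's exact test, unadjusted p = 0.453) and 1.26 points between intergenic and genic peaks (unadjusted exact p = 0.474). Fragments took up 10.8% of genic and 11.0% of intergenic peaks (32 of 295 and 23 of 209, Fisher's exact test, adjusted p = 1). The ERV9 classes were defined with primers that the study placed under its own peaks.

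**Figure D2:**
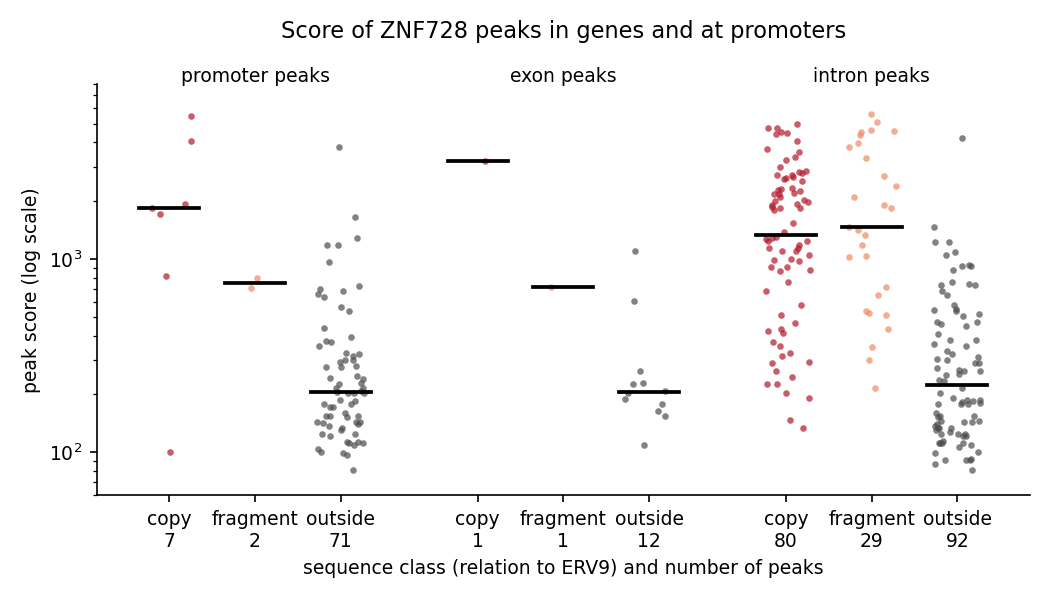
Score of each of the 295 peaks on a log scale, by position (promoter, exon, intron) and by sequence class, with the number of peaks under each column and a bar at the median. Peaks outside ERV9 have medians of 206 at promoters and 224 in introns, and peaks on copies 1821 and 1334.

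Of the 71 promoter peaks outside ERV9, 34 (47.9%) had their centre within 100 bp of the nearest start and 52 within 300 bp, with a median distance of 111 bp. The rule admitted only centres within 1000 bp of a start. The nearest start was taken among all transcripts, which favours short distances, and no background was computed. Upstream of the start lay 41, and 30 lay at or downstream of it. The nearest start belonged to a protein-coding gene in 55 and to a lncRNA in 12, and 17 (23.9%) had starts on both strands within the window. The share of all promoters with starts on both strands was not computed. Their host genes had varied functions. GNG2, a G protein gamma subunit, had by far the highest score of them, 3786, with the centre 21 bp inside the transcript (chr14:52327133-52327628). It was followed by TBRG1 with 1650, 47 bp upstream of its start, and POLM, the DNA polymerase mu of end joining, with 1288, 43 bp downstream. CORO6, a coronin, scored 1185, and C1orf43, with the centre on the start itself, scored 1181. Lower in the list were PRDX4, a peroxiredoxin of the endoplasmic reticulum, with 724, PRKRA, an activator of the kinase PKR, with 639, XRCC5, the Ku80 subunit, with 565, and GEMIN2 of the SMN complex with 322.

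**Figure D3:**
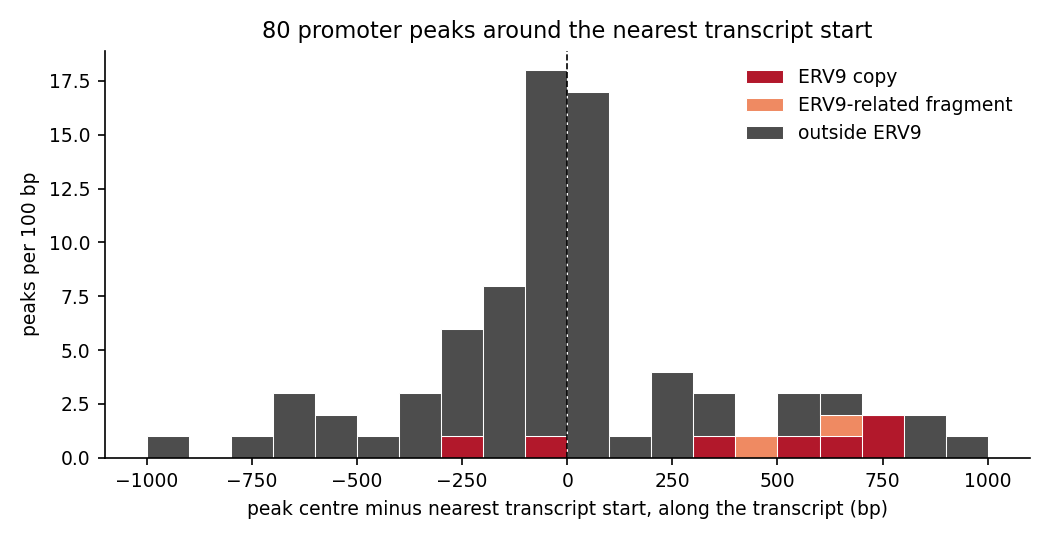
Number of promoter peaks per 100 bp by the position of the peak centre relative to the nearest transcript start, negative values upstream, coloured by sequence class. Of the peaks outside ERV9, 34 of 71 lie within 100 bp of the start, and 7 of the 9 peaks on ERV9 sequence lie 395 to 745 bp downstream of it. The rule admitted only centres within 1000 bp of a start.

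The promoter peaks on ERV9 sequence were placed differently. Of these 9 (7 copies and 2 fragments), 7 lay 395 to 745 bp downstream of a transcript start on the same strand as the element. These were the starts of ENSG00000286403 (score 5473), ENSG00000289966 inside MCMBP (4060), ENSG00000263567 (1913), DHRS2, a short-chain dehydrogenase (820), ENSG00000256084 (793), ENSG00000287839 (707) and C1orf112 (100). The start lay in LTR12C-like sequence (at least 70% identity to the LTR12C primer product) in all of these but ENSG00000287839. The remaining 2 peaks had starts on the strand opposite to the element, at LINC02932 (score 1821, 3 bp upstream) and at METTL25, a methyltransferase-like gene (score 1710, 262 bp upstream), whose start was also in LTR12C-like sequence. Across all ERV9 copies, 11 had a same-strand transcript start in the 1000 bp before the query, 7 of them with a peak, and 2 had an opposite-strand start, 1 of them with a peak.

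Intron peaks were described by their place in the host. The median distance to the nearest exon of the host was 6788 bp (range 91 to 224394 bp), and 10 of 201 peaks were within 500 bp of an exon. The median length of the intron was 44459 bp. These distances were not set against random intron positions, and the sorting had placed exon and promoter centres in other classes. First introns held 76 of 201 (37.8%), with 26 of 80 copies, 18 of 29 fragments and 32 of 92 peaks outside ERV9. The share of first introns in all intronic sequence was not computed, so these counts have no background. The host was protein-coding in 142 and a lncRNA in 51. The highest scores belonged to ADIPOR2, an adiponectin receptor (5582, fragment, intron 1), AIG1 (5121, fragment, intron 1), and MBOAT2, a lysophospholipid acyltransferase (4969, copy, intron 4). They were followed by NUDT19 (4753, copy), the pseudogene VAMP9P (4736, copy), ASB3, a substrate adaptor of a ubiquitin ligase (4650, fragment, 399 bp from an exon), STARD7-AS1 (4586, fragment), ENSG00000286904 (4543, fragment), ECH1, a peroxisomal enzyme of fatty acid oxidation (4501, copy), and RAB11B-AS1 (4448, copy). All 10 were thus on ERV9 copies or fragments. Outside ERV9 the highest intron score was 4226, in intron 29 of DOCK1, an exchange factor for Rac.

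Most intronic ERV9 sequence under a peak was antisense to its host. Of 80 copies in introns, 57 were antisense and 22 sense (72.2% antisense, exact 95% interval 60.9 to 81.7%), and 1 had hosts on both strands. In protein-coding hosts it was 40 antisense and 10 sense (80%, 66.3 to 89.97%). In lncRNA hosts it was 12 and 11 (52.2%, 30.6 to 73.2%), and the difference between host types was not tested. Fragments in introns were antisense in 22 of 29 cases (75.9%, 56.5 to 89.7%). Copies with and without a peak did not differ in strand beyond counting error. Of all genic copies, 58 of 85 with a peak and 9 of 13 without were antisense (68.2 and 69.2%, Fisher's exact test, adjusted p = 1). Without a peak minus with one, this difference lay between -3.68 and 22.2 points under the other settings and passed the threshold under none. By strand, 87.1% of the 31 sense copies and 86.6% of the 67 antisense copies had a peak. Median scores of intron copies were 2204 for sense (95% interval 904 to 2846) and 1271 for antisense (985 to 1932), and these intervals overlap.

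**Figure D4:**
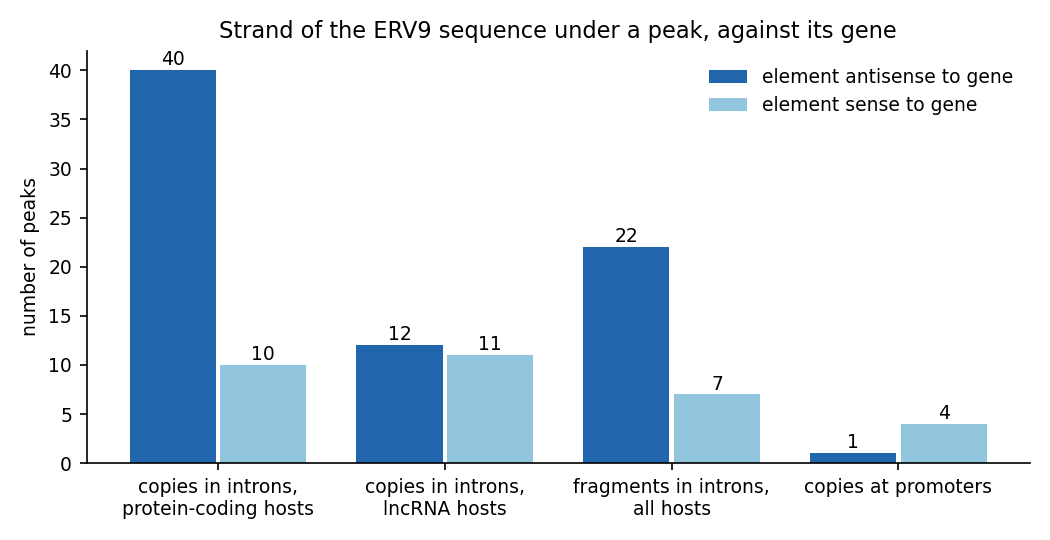
Number of peaks on ERV9 sequence that was antisense (dark) or sense (light) to the gene it lay in. Antisense elements outnumber sense ones 40 to 10 among intron copies in protein-coding hosts, and 12 to 11 in lncRNA hosts.

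Exon peaks were few and mostly outside ERV9. The highest, 3193, was on an ERV9 copy in an exon of the lncRNA ENSG00000289688, and its site was identical to the consensus. A fragment lay in an exon of the lncRNA ENSG00000226854 (713). The other 12 were outside ERV9. Those in 3′ UTRs were at SENP2, a SUMO protease (1101), UNC13A, a factor of synaptic vesicle priming (609), ARHGEF7, an exchange factor for Rac and Cdc42 (263), RPL23, a ribosomal protein (163), and ITSN1 (109). Coding exons were hit in SPRY2, an inhibitor of receptor tyrosine kinase signalling (228), PPP1CA, a catalytic subunit of protein phosphatase 1 (226), and CRYBG1 (202). The remaining 4 were in non-coding exons of OSR2 (207), ENSG00000273145 (188), the overlapping genes CMC1 and AZI2 (178), and CASC15 (155).

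The 295 peaks touched 346 genes, 236 of them protein-coding and 92 lncRNAs, since genes overlap. Only 5 genes had 2 peaks. DAB1, an adaptor of Reelin signalling, had 2 antisense intron copies (1983 and 313). PTPRS, a receptor tyrosine phosphatase, had a sense copy (3362) and a peak outside ERV9 (178). ARHGEF7 had an antisense copy (133) beside its exon peak, the SRF coactivator MRTFA had 2 intron peaks outside ERV9 (180 and 144), and the lncRNA ENSG00000253369 had 2 copies on opposite strands (2813 and 1840). Among 570 zinc finger genes 7 had a peak (1.23%), against 236 of all 20098 protein-coding genes (1.17%). They were ZNF30 (440), ZNF718 (354), ZNF678 (349, on a fragment), ZNF746 (145), ZNF775 (131), ZNF74 (104) and ZNF765 (81). None of the 16 genes of the KAP1 repressor complex, 3 NF-Y genes and 69 histone genes had one. Ribosomal protein genes had 2 of 84, RPL15 and RPL23. The RPL15 peak (125) was nearest to the start of NKIRAS1, a gene on the other strand, 25 bp downstream of it. A list of axonemal dynein subunits and dynein assembly factors had 1 of 31, the assembly factor DNAAF9 (206), and no axonemal subunit on it had a peak. The dynein gene DYNC2H1, which that list leaves out, had an intron peak on a sense copy (1294).

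Stretches of the ERV9 consensus also occurred at the centres of peaks outside ERV9. All 400 windows of 10 letters between consensus positions 166 and 574, where at least 44 of the 88 copies were aligned within the peak, were searched, on both strands with 1 mismatch allowed, in the 100 bp around the centres of the 175 genic peaks outside ERV9. The same search was made in 2 windows per peak at 500 bp to either side. The letters 353 to 362 were found most often, in 24 centres (13.7%, exact 95% interval 8.99 to 19.7%) and in 1 of 350 flanking windows (0.286%). The most frequent window that did not overlap them was 369 to 378, in 18 centres (10.3%, 6.21 to 15.8%) and 2 flanking windows (0.571%). No window of the 400 exceeded 3.71% in the flanks. Of the windows that overlapped neither 353 to 362 nor 369 to 378, letters 488 to 497 were found most often. They were in 13 centres (7.43%) and 9 flanking windows (2.57%). Letters 492 to 501 were in 8 centres (4.57%) and 1 flanking window (0.286%). This search was made after a resemblance had been seen among these peaks, and it carries no test.

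**Figure D5:**
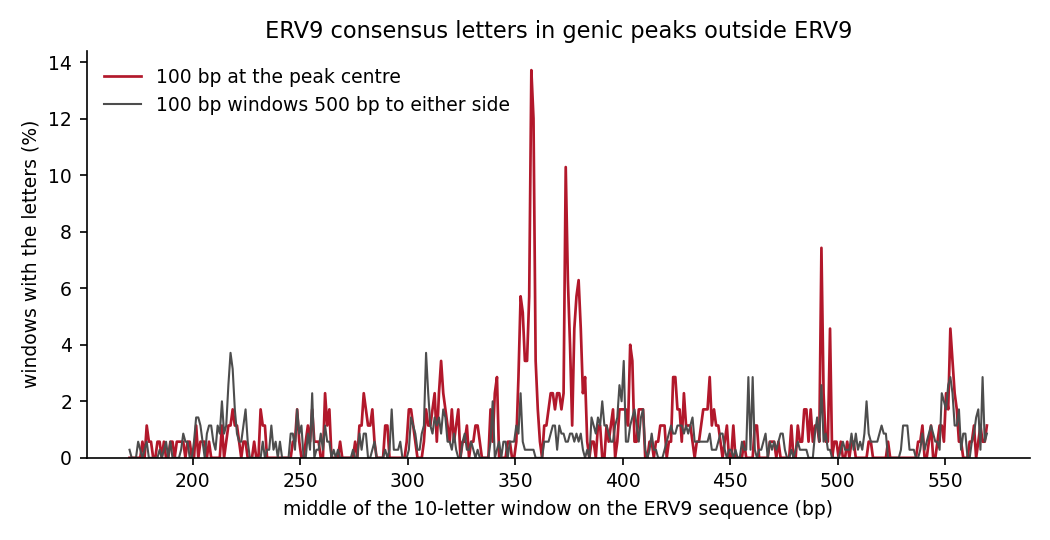
Share of 100 bp windows that hold a 10-letter stretch of the ERV9 consensus with at most 1 mismatch, by the middle of the stretch on the ERV9 sequence. At the centres of the 175 genic peaks outside ERV9 the share rises to 13.7% and 10.3% at 2 stretches, and in the flanks it stays at or under 3.71%. A lower rise at the centres, to 7.43%, lies at letters 488 to 497, where the flanks hold 2.57%.

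Both stretches were found at promoters and in introns. Letters 353 to 362 were in 16 of 71 promoter centres (22.5%, 13.5 to 34.0%) and 7 of 92 intron centres (7.61%, 3.11 to 15.1%). Letters 369 to 378 were in 4 (5.63%, 1.56 to 13.8%) and 13 (14.1%, 7.74 to 22.95%). The intervals of promoters and introns overlap for each stretch, and the differences were not tested. As background, the 100 bp at the starts of 20095 protein-coding genes held the first in 0.796% and the second in 1.19%, and the midpoints of 116232 introns of over 1000 bp held them in 0.206% and 0.853%. Either stretch was present in 41 of 175 peaks (23.4%, 17.4 to 30.4%), comprising 20 promoter, 19 intron and 2 exon peaks (SENP2 and CRYBG1), and both in 1, ZNF718. Their spacing there, 16 bp from start to start, was that of the ERV9 site, and its best match to the 30 letters had 2 mismatches, so it is an ERV9-like site that the search for copies and fragments missed. The peak in ENSG00000234810 was alike with 4 mismatches. In all other peaks outside ERV9 the 30 letters had 8 or more. The stretch lay at a median of 13 bp from the centre for the first and 9.5 bp for the second. Only the 100 bp around the centre were searched, which bounds these distances, and no background was computed for them. For the first stretch the median was 13 bp at promoters and 21.5 bp in introns (7 peaks). For the second it was 10.5 bp at promoters and 8.5 bp in introns. Peaks with either had a median score of 288 (190 to 440) and those with neither 195 (178 to 228), and these intervals overlap. Among the 20 promoter peaks outside ERV9 with the highest scores, 8 held either stretch, against 20 of all 71 (28.2%). Among the 20 highest intron peaks outside ERV9 it was 6, against 19 of 92 (20.7%). Over all peaks outside ERV9 it was 7 of the 20 highest, against 41 of 175. These differences between high and all scores were not tested.

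The sites below are shown because they carry a stretch at a peak outside ERV9. The strand is the one on which the stretch reads as in the consensus, capitals mark the stretch, and the lower-case letters beside it are its hg19 neighbours. They were picked among the higher scores of either class.
GNG2 promoter, chr14:52327355-52327384, minus strand, score 3786: ggagcgcggcGGCAGCGTTGtgagtatgtg
POLM promoter, chr7:44122020-44122049, plus strand, score 1288: ccgccgtttgGGGAGCATTGggacgacagc
PRDX4 promoter, chrX:23685440-23685469, minus strand, score 724: gaccaggaccGGGAGCGTTGcccaactctg
PRKRA promoter, chr2:179315641-179315670, minus strand, score 639: ccccagggccGGGAGCGTTGggcggcaggg
ENSG00000272829 promoter, chr22:21336167-21336196, plus strand, score 537: tagcaggaaaGGGAGCGTTGagccgcctgc
GEMIN2 promoter, chr14:39583417-39583446, minus strand, score 322: tggcagtttaGGGAGCGTTAactgcgcatg
EBF3 intron, chr10:131770204-131770233, minus strand, score 1051: aaaatggcacGGGAGCGTCGggtaattgtg
CES5A intron, chr16:55892306-55892335, minus strand, score 731: actgtaactaCTGTAACCAGttccccagtg
CES5AP1 intron, chr22:23707291-23707320, minus strand, score 730: actgtaactaCTGTAACCAGttccccaatg
BICRAL intron, chr6:42787580-42787609, plus strand, score 654: gttgtacctaCTGGGACCAGaggagaaggc
ZNF718 intron, chr4:190504-190533, minus strand, score 354: gttggtctgcCTGGAACCAGcttccacttt
Over all 30 letters of the ERV9 site, the promoter peaks outside ERV9 had at least 10 mismatches. CES5A and its pseudogene CES5AP1 descend from the same sequence and are not independent sites. Their form of the second stretch, CTGTAACCAG, was also at the centres of the peaks at SENP2, ENSG00000270477, WBP1L and FAM172A. Without a repeat annotation, shared descent of these and other sites with a stretch was not tested, so they may not be independent either. The site in GNG2, the strongest of these promoters, had 1 mismatch, as had POLM, while PRDX4, PRKRA and ENSG00000272829 had 0.

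Windows at promoter peaks outside ERV9 had a lower GC content than windows at protein-coding starts, and a similar CpG ratio. The windows of peaks and of background are unlike. Peak windows were centred on the peak, -902 to 971 bp from the nearest start, with 34 of 71 within 100 bp. That start was protein-coding in 55 of the 71, whereas all background windows lay on protein-coding starts. In 250 bp windows at the centre the median GC was 58.8% (quartiles 52.2 and 66.8%) and the ratio of observed to expected CpG 0.773, against 66.0% and 0.808 at the starts of all 20095 protein-coding genes. Windows with a GC of at least 50% and a CpG ratio of at least 0.6 made up 66.2% and 67.5%. For intron peaks outside ERV9 the median GC was 45.6% and the CpG ratio 0.207, against 42.4% and 0.197 at intron midpoints. No promoter motif searched had an interval in these peaks that lay above its share in all promoters, and the interval of the GC box lay below it. These differences were not tested, and neither was the effect of the unlike windows on them. CCAAT, the NF-Y box, was in 22.5% of these peaks (exact 95% interval 13.5 to 34.0%) and in 29.4% of all promoters. The GC box GGGCGG was in 38.03% (26.8 to 50.3%) and 58.0%. The TATA box TATAAA was in 4.23 and 7.39%, the ETS motif CCGGAAG in 9.86 and 12.4%, and the E-box CACGTG in 2.82 and 6.70%. The NRF1 core GCATGCGC was in 4 of 71 (5.63%, 1.56 to 13.8%) and 3.32%. The cyclic AMP response element TGACGTCA was in 0 of 71, which allows up to 5.06%, and in 2.25% of promoters. All letters were searched on both strands without a mismatch, they can overlap one another, and a match is not evidence of a bound factor.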

How the data were processed

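As the labels and methods describe, the authors aligned read pairs with Bowtie2 (hg19), discarded poorly mapped reads and those in blacklisted or high-input regions, and called peaks with MACS2 on 1 IP against 1 input. The deposited list gives each peak a position and a score, in MACS2 a scaled negative logarithm of a p-value or q-value, and which one is not given in the sources used here. Scores only ranked peaks. The study's methods state a sequencing depth for the libraries, but the file holds no read counts, so the number of reads behind each peak is unknown. The mapping filter can lower counts where repeat copies are nearly identical.

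Coordinates are hg19, 1-based, read on the GRCh37 assembly with GENCODE 44 lifted to it. No repeat annotation was used. Element copies were found with blastn 2.17.0 (expectation value 1e-5, alignments within 500 bp joined) from genomic products of the study's ERV9 (chr3:33488458-33489304) and LTR12C primers. Promoter came before exon, and exon before intron, where a centre met several. The strand of the provirus was set with an envelope protein search. Of the hosts of a peak, the protein-coding one was described first. Shares have exact (Clopper-Pearson) intervals and medians order-statistic intervals at 95%, both covering counting error only. Two-sided Fisher's exact tests (7, of which 3 were added after the data were seen) had Benjamini-Hochberg adjustment over all 7. Peaks of 1 library are not replicates, so p-values describe this list. Scripts were tested on simulated data. Python 3.11.15, scipy 1.17.1, numpy 2.4.6, pysam 0.24.0, samtools 1.23.1, biopython 1.88 and matplotlib 3.10.9 were used.

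The members and lists were chosen with earlier results of these data known. Named genes were the hosts of the 10 highest peaks of each class, all exon peaks, genes with 2 peaks, zinc finger genes, hosts of promoter peaks on ERV9 and the members of the gene lists. Other genes, among them DOCK1, DYNC2H1, PRDX4, PRKRA, XRCC5, GEMIN2, DLG2, SPATA6, RTL4 and the sites printed outside ERV9, were chosen after their values were seen. So were the fragment class, the 30-letter site, its relation to score, and the search for its stretches. Alternatives were other windows, gene types, overlap rules, score limits, copy limits and search settings.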

Additional observations from a re-analysis of the deposited data

How the results depend on the processing

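Over 17 results and 68 alternatives, 49 values stayed within the limits set for them. Where the others are given, the cause was not tested unless the setting itself shows it. With the upper part of the score ranking only, the number of peaks in genes and at promoters was 123, with 19 promoter, 4 exon and 100 intron peaks, and copies took up 31.6% of promoter and 61.0% of intron peaks. Promoter peaks numbered 44 with a window of 200 bp and 162 with 5000 bp, which left 7 exon peaks, and the share of promoter peaks on copies at 200 bp was 2.27%. At 90% identity few copies remained. The shares on copies were then 1.25% of promoter and 3.98% of intron peaks, and the differences fell to 2.73 points between intron and promoter peaks (Fisher's exact p = 0.453) and 1.26 points between intergenic and genic peaks (Fisher's exact p = 0.474). At 70% identity over 20% of the query, 54.2% of intron peaks were on copies, and the antisense share of genic copies without a peak minus that with one turned to -3.68 points (Fisher's exact p = 0.727), against 1.00 as reported. With protein-coding genes only it was 22.2 points (Fisher's exact p = 1) and with the upper part of the ranking 14.5 points (Fisher's exact p = 0.171), so its size was poorly determined and it passed the threshold in no setting. At 90% identity that difference could not be computed. The higher share of strong intron peaks fell to 2.99 points outside ERV9 (Fisher's exact p = 0.679, added after the data were seen). Median GC of intron peaks was 52.0% in 200 bp around the centre against 50.5% over whole peaks. With 0 mismatches allowed, 4.00% of peaks outside ERV9 held either stretch, against 0.286% of flanking windows (added).

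Leaving out a replicate was not possible with 1 IP library. No paired analysis was possible because no groups of replicates exist. The variation between experiments, the reads behind each peak and weak binding below the caller's threshold cannot be judged from this list.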
